A study of Mus musculus with 12 samples.

Results

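The integrated stress response and the unfolded protein response were followed through 40 genes in cochlear glial spheres and in 3 cultures differentiated from them. The members were taken by gene symbol from lists of eIF2 and ER stress sensors, ATF4 pathway regulators, ATF4 targets of amino acid supply, ER chaperones and ER-associated degradation (ERAD) genes. Members and further lists were chosen with earlier results of these data known. The shares of them set beside those of all genes are therefore descriptions and no separate support. All 40 symbols were found among the 55487 genes listed, and all 40 passed the filter that kept 16016 genes, which asked for 3 or more of the 12 libraries with 1 TPM or more. TPM, the share of a gene among all transcripts of a library, is a level per length of transcript, so levels of different genes may be set side by side. Ddit3 had 2 rows under its symbol. The second row was listed at 0 in every library and the expressed row was used.

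Both responses adjust protein synthesis to the state of the cell. In the integrated stress response, kinases such as PERK phosphorylate the translation factor eIF2, which lowers general translation and favours translation of the transcription factor ATF4, whose targets supply amino acids, charge tRNAs and feed back on the response. In the unfolded protein response, PERK, IRE1 and ATF6 sense misfolded protein in the endoplasmic reticulum (ER), and the factors XBP1 and ATF6 raise chaperones and the ERAD machinery that removes misfolded proteins. ATF4 is controlled largely in translation and XBP1 by splicing of its mRNA, so the gene-level mRNA values given here do not show the activity of either factor.

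The study asked how glial cells of the neonatal mouse cochlea turn into neurons, and profiled poly(A) RNA of 12 cultures by RNA-seq, 3 biological replicates in each of 4 groups. All cells came from the cochlea of mice at postnatal day 4 on a mixed C57Bl6 and FVB/N background, with the tissue of several mice of both sexes pooled for dissociation. Spheres, the starting cells, grew in suspension in DMEM/F12 with B27, N2, 20 ng/ml EGF, 10 ng/ml bFGF, 50 ng/ml IGF and 50 ng/ml heparan sulfate. SCDM cells were plated spheres kept for 14 days in DMEM/F12 with B27, N2, 50 ng/ml BDNF and 50 ng/ml NT3, and SCDM/FGF cells had the same medium with 100 ng/ml bFGF added. FIBCL cells were kept for 14 days in Neurobasal medium with B27, N2, GlutaMax and bFGF, for which the labels list both 50 and 100 ng/ml, and with 20 µM Forskolin, 20 µM ISX9, 1 µM I-BET, 10 µM CHIR99021 and 1000 U/ml LIF. SCDM/FGF differed from SCDM by bFGF alone. FIBCL differed from SCDM and SCDM/FGF in base medium, growth factors and small molecules together, and spheres differed from the other groups in medium, plating and time, so the effects of these cannot be told apart.

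The cultures were mixtures, and in bulk RNA fewer cells of a type and less RNA per cell cannot be told apart. The summed level of 9 glial markers ran from 746 to 786 scaled TPM in spheres, from 20.3 to 26.8 in FIBCL, from 243 to 279 in SCDM and from 239 to 291 in SCDM/FGF. The sum of 10 neuronal markers ran from 552 to 584 in FIBCL and from 19.5 to 38.8 over the other 9 libraries. The labels name SCDM and SCDM/FGF cells induced neurons. Against spheres, 1 of 8 tested neuronal markers rose in SCDM, Tubb3 from 4.84 to 11.5, and 2 fell, Nefm from 7.49 to 0.248 and Nefl from 3.38 to 0.0691. In SCDM/FGF 2 rose and none fell. Without rescaling none rose in SCDM and 1 in SCDM/FGF. The sum of 10 mesenchymal markers ran from 3524 to 3628 in spheres, from 10226 to 11157 in SCDM and from 7319.5 to 7652 in SCDM/FGF. In FIBCL it ran from 1379 to 1415, and Fn1 and Twist1 made up 97.7% of it. The sum of 10 macrophage markers ran from 127 to 164 in spheres, from 1549 to 1685 in SCDM and from 1702 to 1841 in SCDM/FGF. In FIBCL it ran from 168 to 199, and Cd68 and Tyrobp made up 96.3% of it. None of the glial, mesenchymal or macrophage markers was listed at 0 in all libraries of a group.

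The deposited values of each library were scaled so that the bulk of well expressed genes matched between libraries. The listed TPM of FIBCL libraries summed to 899295 to 911076 and those of the others to 982067 to 994845. The scaling rested on log2 ratios of genes and not on these sums, which do not account for it. Its mean log2 offset was -0.32 for FIBCL. Spheres had 0.23 and SCDM 0.085, although the sums of both lay in the upper range. Why the offsets differed was not tested. The median log2 fold change over the genes tested went with scaling from -0.40 to -0.07 between FIBCL and SCDM, from -0.31 to -0.05 between FIBCL and SCDM/FGF, from -0.51 to -0.06 between FIBCL and spheres, from -0.22 to -0.02 between SCDM/FGF and spheres and from -0.13 to -0.01 between SCDM and spheres. All levels below are scaled TPM, as mean ± SD of 3 libraries or as the values of replicates 1, 2 and 3. Fold changes are differences of log2(scaled TPM + 1) ± SE, which understate the change of low genes. A gene was called higher or lower when limma's Benjamini-Hochberg adjusted p over all 16016 genes was under 0.05 and the difference was at least 1 on the log2 scale, and "rose" and "fell" are used for called genes only. The labels say biological replicates without naming separate animals, so the p-values measure the spread between these cultures.

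**Figure D1:**
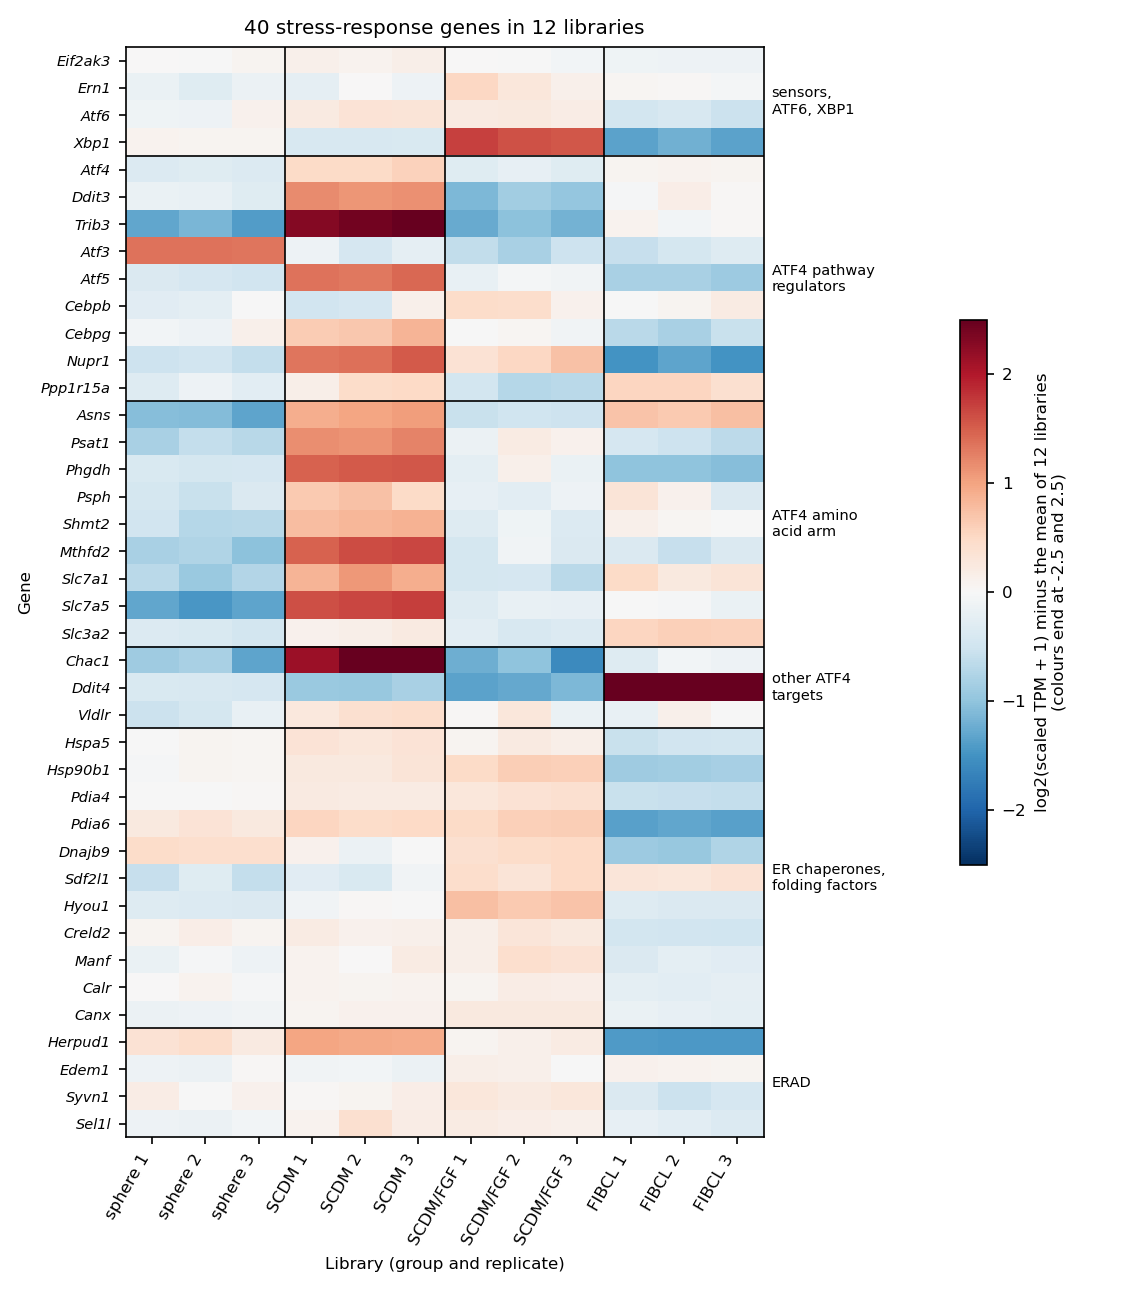
Levels of the 40 genes (rows, grouped by role) in the 12 libraries (columns), as log2(scaled TPM + 1) minus the gene's mean over all libraries; red is above and blue below that mean, and colours end at -2.5 and 2.5. Most ATF4 regulators, though not Atf3 or Cebpb, and the amino acid genes are red in the 3 SCDM libraries, Xbp1 is red in SCDM/FGF, Ddit4 is red in FIBCL, and the ER chaperones are mostly blue in FIBCL.

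SCDM cells had the highest levels of most genes of the ATF4 pathway. Against spheres, 13 of the 40 members rose and 1 fell in SCDM, where 6.94% of all genes tested rose and 5.46% fell. The 13 were Trib3, Chac1, Slc7a5, Mthfd2, Asns, Nupr1, Phgdh, Psat1, Atf5, Slc7a1, Shmt2, Ddit3 and Psph, and none of them was an ER chaperone or an ERAD gene. Psph, at 1.08, lost its call without rescaling (0.95). Atf3, a stress-induced transcription factor, was the member that fell. The median log2 fold change was 0.34 over the 40 members and -0.01 over all genes.

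Adding bFGF to the same medium went with low levels of the same pathway. Against SCDM, 1 member rose and 11 fell in SCDM/FGF, where 5.73% of all genes rose and 4.04% fell. Xbp1 rose. Chac1, Trib3, Ddit3, Slc7a5, Mthfd2, Phgdh, Asns, Atf5, Slc7a1, Psat1 and Shmt2 fell. This comparison and the one with spheres share the SCDM libraries, so the genes that head both lists are not independent of each other. Against spheres, 4 members rose and 1 fell in SCDM/FGF, where 7.39% of all genes rose and 4.73% fell, in all 12.5% of the members beside 12.1% of all genes. Without rescaling, 1 rose and 2 fell there beside 6.12% and 6.93% of all genes, since Nupr1, Slc7a5 and Hyou1 lost their call and Ddit4 passed as lower.

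In FIBCL cells, 1 member rose and 13 fell against SCDM, where 13.2% of all genes rose and 16.1% fell. Ddit4 rose. Nupr1, Chac1, Phgdh, Trib3, Herpud1, Atf5, Mthfd2, Pdia6, Slc7a5, Psat1, Cebpg, Hsp90b1 and Ddit3 fell. Without rescaling, 20 members fell, where 23.3% of all genes did. Against SCDM/FGF, 6 members rose and 7 fell, where 12% of all genes rose and 15.8% fell. Together they made up 32.5% of the members beside 27.8% of all genes. Without rescaling 1 rose there, Ddit4, and 12 fell, since Asns, Chac1, Ddit3, Ppp1r15a and Trib3 dropped under the limit with values from 0.73 to 0.92, where 8.8% of all genes rose and 20.6% fell. Against spheres, 5 rose and 5 fell, where 12.5% and 15.5% of all genes did, in all 25% of the members beside 28.1% of all genes, or 2 and 13 without rescaling beside 7.87% and 26.9% of all genes, when Slc7a1, Slc7a5 and Trib3 lost their call. The share of members called in these last comparisons was thus close to the share of all genes.

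**Figure D2:**
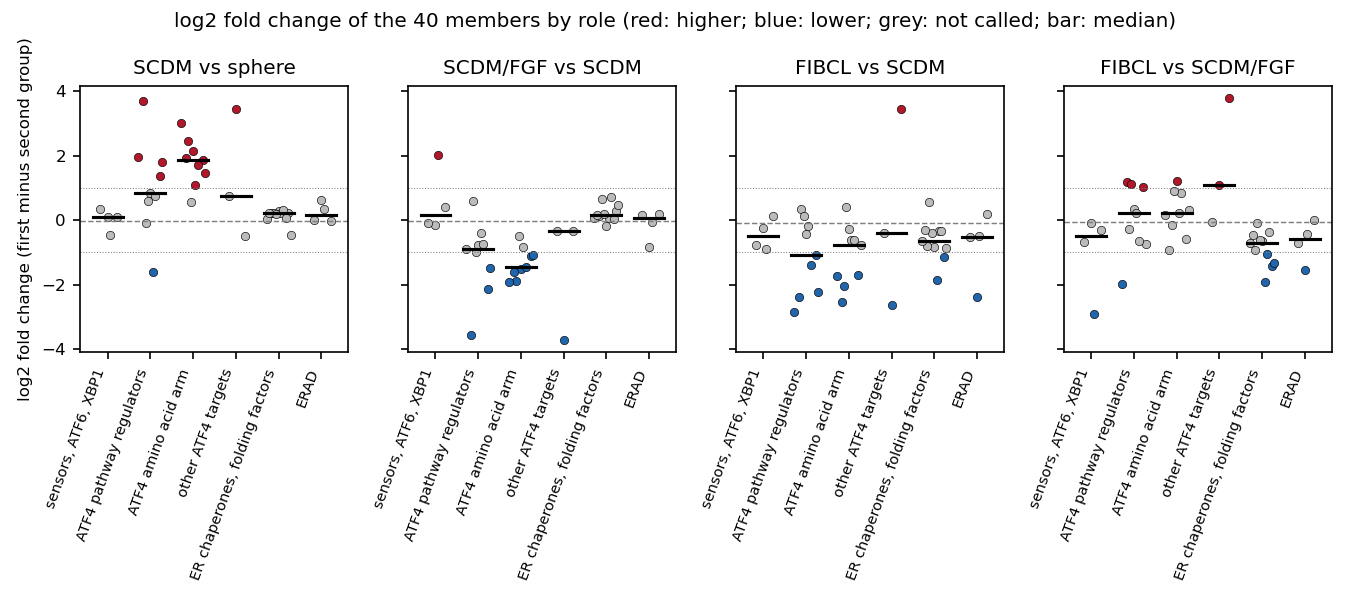
log2 fold change (first minus second group, on log2(scaled TPM + 1)) of the 40 members by role in 4 comparisons; each point is a gene, red called higher, blue called lower and grey not called, the bar is the median of the role, the dotted lines are at 1 and -1 and the dashed line is the median of all genes. The amino acid arm lies high in SCDM against spheres and low in SCDM/FGF against SCDM, where the medians of ER chaperones and of ERAD genes lie near 0.

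The transcription factors and feedback regulators of the ATF4 pathway were led by Trib3, a pseudokinase that ATF4 induces and that feeds back on ATF4 and CHOP. Trib3 stood at 2.42, 2.79 and 2.17 in the sphere libraries, 40.03, 43.8 and 46.9 in SCDM, 7.93, 7.01 and 7.58 in FIBCL and 2.52, 3.12 and 2.68 in SCDM/FGF. The SCDM libraries lay above all others, and spheres and SCDM/FGF overlapped. Its mean was 17.7 times that of spheres in SCDM, a log2 fold change of 3.69 ± 0.097 (limma adjusted p = 3.11e-10). Trib3 fell by 2.39 from SCDM to FIBCL on the log2 scale (limma adjusted p = 1.18e-09) but stayed above SCDM/FGF by 1.18 ± 0.097.

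Ddit3 encodes CHOP, a transcription factor of prolonged ER stress and a partner of ATF4. It stood at 58.3, 57.7 and 52.8 in spheres, 149, 142 and 146 in SCDM, 64.7, 73.9 and 67.3 in FIBCL and 29.8, 35.3 and 33.2 in SCDM/FGF, so that SCDM was highest and SCDM/FGF lowest with no overlap between groups. It rose in SCDM against spheres (log2 fold change 1.36 ± 0.068, limma adjusted p = 2.76e-08) and fell in SCDM/FGF against SCDM (-2.12 ± 0.068, limma adjusted p = 9.53e-10). Its rise in FIBCL against SCDM/FGF, 1.04 ± 0.068, lay close to the limit of 1 and fell under it without replicate 1 of SCDM/FGF (0.98) or replicate 2 of FIBCL (0.99). Atf4 itself, with 132 ± 2.53 in spheres, 237 ± 10.5 in SCDM, 176 ± 1.55 in FIBCL and 138 ± 5.19 in SCDM/FGF, was highest in SCDM and next in FIBCL, with log2 fold changes from -0.78 to 0.84 that did not reach the limit in any comparison. Spheres and SCDM/FGF overlapped for Atf4.

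Atf5, a related stress factor, averaged 58.4 ± 2.30 in spheres, 204 ± 8.18 in SCDM, 43.2 ± 1.74 in FIBCL and 72.5 ± 3.54 in SCDM/FGF. Unlike Trib3, it was lowest in FIBCL, where it had fallen by 2.21 from SCDM on the log2 scale (limma adjusted p = 1.26e-11). Nupr1, a small stress-induced cofactor of transcription, showed a similar order, with 116 ± 4.66 in spheres, 452 ± 34.7 in SCDM, 61.9 ± 4.53 in FIBCL and 246 ± 31.5 in SCDM/FGF. It fell in FIBCL against SCDM (-2.85 ± 0.089) and against SCDM/FGF (-1.97 ± 0.089), and its rise in SCDM/FGF against spheres was 1.06 ± 0.089, or 0.97 without replicate 3 of SCDM/FGF. Cebpg, a partner of ATF4 on DNA, averaged 23.1 ± 1.98 in SCDM and 8.11 ± 0.846 in FIBCL and fell there (-1.40 ± 0.094, limma adjusted p = 9.07e-08).

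Atf3, which is induced by many stresses, went its own way. Its level was 186, 187 and 185 in spheres, 65.9, 53.9 and 61.4 in SCDM, 48.3, 53.3 and 57.6 in FIBCL and 46.5, 40.7 and 50.1 in SCDM/FGF, higher in the 3 sphere libraries than in the other 9. It fell from spheres to SCDM (-1.61 ± 0.09), to SCDM/FGF (-2.01 ± 0.09) and to FIBCL (-1.79 ± 0.09), while FIBCL overlapped with both other cultures. Ppp1r15a, the GADD34 subunit that directs a phosphatase to eIF2, averaged 27.3 ± 2.16 in spheres, 42.4 ± 5.61 in SCDM, 46.1 ± 2.34 in FIBCL and 20.8 ± 2.08 in SCDM/FGF. It rose in FIBCL against SCDM/FGF (1.11 ± 0.1, limma adjusted p = 1.32e-06), and its difference between SCDM/FGF and SCDM, -0.99 ± 0.1, passed the limit without replicate 1 of SCDM (-1.10) or replicate 1 of SCDM/FGF (-1.07). Cebpb, another bZIP factor, varied within groups, from 28.8 to 44.3 in SCDM, and was not called in any comparison.

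The 9 genes of the ATF4 amino acid arm were all higher in SCDM than in spheres with no overlap between libraries. This held for 28.2% of all genes. Of the 9, 8 rose, which is 88.9% beside 6.94% of all genes, or 7 without rescaling beside 6.31%. The arm's median log2 fold change was 1.87. Between SCDM/FGF and SCDM, 7 of the 9 fell, beside 4.04% of all genes, and the median was -1.46. In FIBCL, 4 of 9 were lower than in SCDM (median -0.76), 1 was higher than in SCDM/FGF (median 0.23) and 3 were higher than in spheres (median 0.69). These are 44.4%, 11.1% and 33.3% of the 9, beside 16.1%, 12% and 12.5% of all genes. The place of FIBCL against SCDM/FGF varied by gene, with 6 values above 0 and 3 below, those of Phgdh, Psat1 and Mthfd2. It also turned with the scaling, since without rescaling the median was -0.07, Asns was no longer called and Phgdh passed as lower. Against spheres the median was 0.16 without rescaling, with 1 gene higher and 1 lower. Against SCDM 5 of the 9 fell without rescaling (median -1.16), beside 23.3% of all genes.

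Slc7a5, the light chain of the LAT1 transporter of large neutral amino acids, had the largest rise of the arm from spheres to SCDM. It stood at 9.94, 8.73 and 9.72 in spheres, 80.4, 84.00 and 87.8 in SCDM, 25.5, 25.3 and 22.8 in FIBCL and 20.3, 22.6 and 22.1 in SCDM/FGF. The log2 fold change was 3.02 ± 0.067 from spheres to SCDM (limma adjusted p = 1.17e-10) and -1.91 ± 0.067 from SCDM to SCDM/FGF (limma adjusted p = 1.74e-09). Its heavy chain partner Slc3a2 moved less and in another order, with 135 ± 6.05 in spheres, 199 ± 7.55 in SCDM, 264 ± 5.13 in FIBCL and 140.2 ± 6.49 in SCDM/FGF, highest in FIBCL. Its difference between FIBCL and spheres, 0.96 ± 0.047, stayed under the limit. Slc7a1, a carrier of arginine and lysine, averaged 5.02 ± 0.570, 18.9 ± 1.77, 12.1 ± 1.06 and 6.22 ± 0.717 in the same order of groups, and rose from spheres to SCDM (1.72 ± 0.11) and to FIBCL (1.12 ± 0.11).

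The 3 enzymes of serine synthesis did not keep together in FIBCL. Phgdh, which catalyses the first step, stood at 21.95, 21.02 and 21.1 in spheres, 81.96, 85.5 and 85.6 in SCDM, 13.9, 13.7 and 13.2 in FIBCL and 24.2, 31.5 and 25.6 in SCDM/FGF. It was thus highest in SCDM and lowest in FIBCL, where it had fallen by 2.55 from SCDM on the log2 scale (limma adjusted p = 1.38e-10), and its difference to SCDM/FGF was -0.93 ± 0.08, or -1.01 without replicate 1 of SCDM/FGF. Psat1, the aminotransferase of the second step, fell likewise, from 86.5 ± 3.78 in SCDM to 25.9 ± 2.26 in FIBCL (-1.70 ± 0.096, limma adjusted p = 1.92e-08), and overlapped with spheres. Psph, the phosphatase of the last step, averaged 10.7 ± 0.736 in spheres, 23.7 ± 2.14 in SCDM, 15.6 ± 3.83 in FIBCL and 12.9 ± 0.691 in SCDM/FGF. Its FIBCL libraries were spread from 11.4 to 19.0.

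Asns, which makes asparagine from aspartate and glutamine, was high in both SCDM and FIBCL. Its level was 20.6, 20.3 and 17.05 in spheres, 84.5, 88.9 and 92.4 in SCDM, 73.1, 69.9 and 75.04 in FIBCL and 29.8, 30.98 and 30.5 in SCDM/FGF. It rose from spheres to SCDM (2.15 ± 0.067, limma adjusted p = 8.09e-10) and to FIBCL (1.86 ± 0.067, limma adjusted p = 4.7e-10), and between FIBCL and SCDM its difference was -0.28 ± 0.067. Shmt2 and Mthfd2 are enzymes of mitochondrial one-carbon metabolism that use serine. Shmt2 averaged 23.4 ± 2.22 in spheres, 65.5 ± 2.33 in SCDM, 38.1 ± 1.68 in FIBCL and 30.6 ± 2.91 in SCDM/FGF, and Mthfd2 9.58 ± 1.00, 56.7 ± 3.84, 13.2 ± 1.19 and 14.7 ± 1.99 in the same order. Mthfd2 fell from SCDM to FIBCL (-2.03 ± 0.11, limma adjusted p = 9.98e-09), and Shmt2, at -0.76 ± 0.077, was under the limit.

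**Figure D3:**
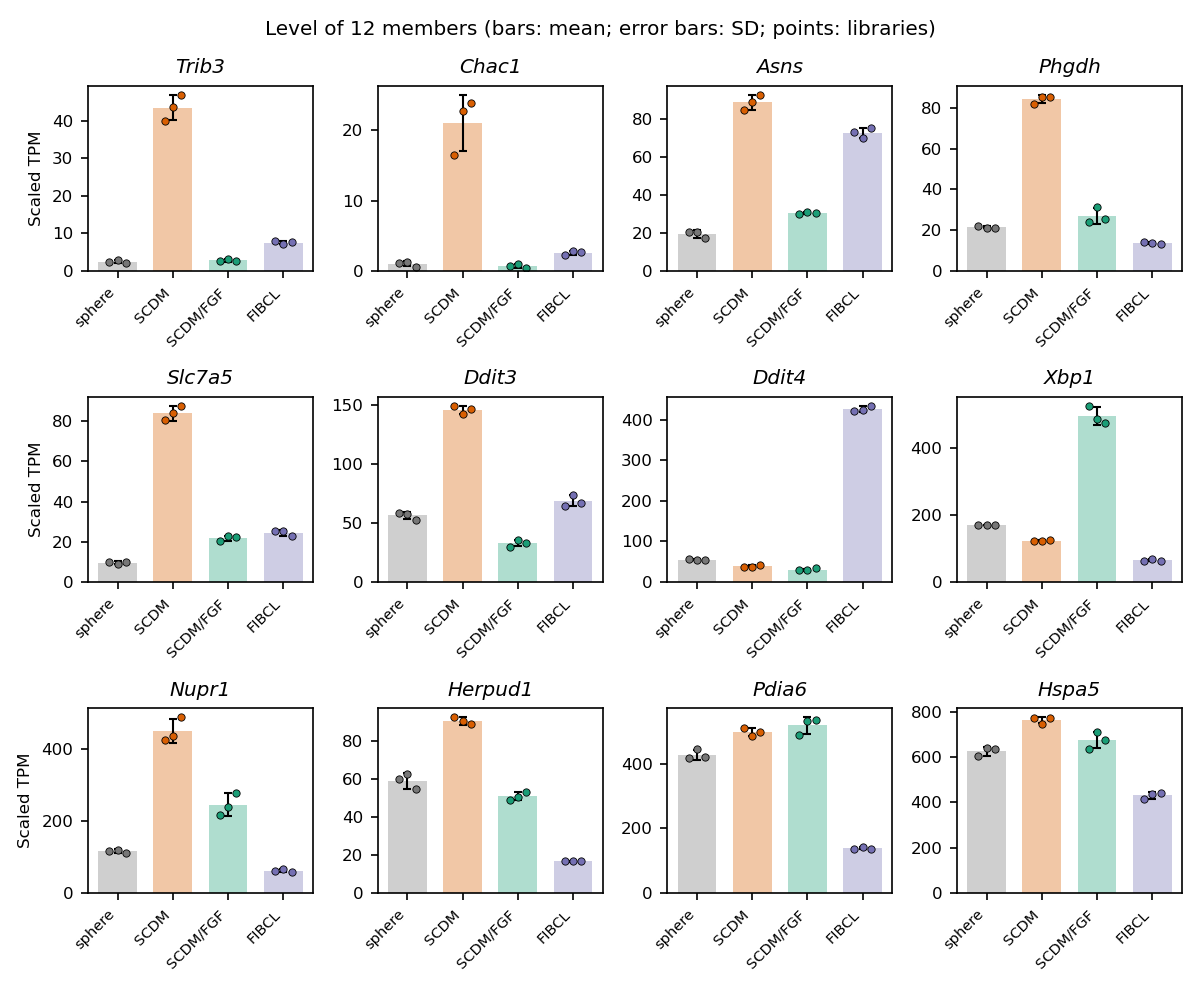
Levels of 12 members in scaled TPM (linear axes from 0, a scale of its own for each gene); bars are means of 3 libraries, error bars SD and points the libraries of each group. Trib3, Chac1, Phgdh, Slc7a5 and Ddit3 peak in SCDM, Asns is high in SCDM and FIBCL, Xbp1 peaks in SCDM/FGF, Ddit4 in FIBCL, and Herpud1 and Pdia6 are lowest in FIBCL.

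Of the 3 other ATF4 targets, Chac1 and Vldlr had their highest mean in SCDM and Ddit4 in FIBCL. Chac1 breaks down glutathione. Its level was 1.15, 1.27 and 0.596 in spheres, 16.5, 22.8 and 23.9 in SCDM, 2.19, 2.78 and 2.64 in FIBCL and 0.705, 0.986 and 0.325 in SCDM/FGF, high only in the 3 SCDM libraries. It rose in SCDM against spheres (3.46 ± 0.19, limma adjusted p = 6.25e-08) and fell in SCDM/FGF against SCDM (-3.72 ± 0.19, limma adjusted p = 3.63e-08). At the low levels of the other groups its fold changes depended on the pseudocount and on replicates. FIBCL exceeded SCDM/FGF by 1.10 ± 0.19, or 0.94 without replicate 3 of SCDM/FGF, and spheres by 0.83 ± 0.19, or 1.30 with a pseudocount of 0.1.

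Ddit4 encodes REDD1, an inhibitor of mTORC1 that is induced by low oxygen, glucocorticoids and other signals besides ATF4. It stood at 55.2, 54.2 and 54.05 in spheres, 37.5, 36.9 and 40.8 in SCDM, 422, 424 and 434 in FIBCL and 28.2, 29.2 and 32.9 in SCDM/FGF. The FIBCL libraries were far above the other 9, and SCDM, where Trib3 and Chac1 peaked, lay below spheres. Its mean in FIBCL was 11.1 times that in SCDM (log2 fold change 3.44 ± 0.056, limma adjusted p = 9.29e-13) and 14.2 times that in SCDM/FGF (3.79 ± 0.056). Ddit4 also rose in FIBCL against spheres (2.95 ± 0.056), and it was called higher with and without rescaling in these 3 comparisons. Vldlr, a lipoprotein receptor, averaged 10.5 ± 1.52, 18.3 ± 1.31, 13.8 ± 1.62 and 14.6 ± 2.45 in spheres, SCDM, FIBCL and SCDM/FGF and was not called in any comparison.

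Promoters were read from RefSeq (GRCm38.p6), as windows from 250 bases before to 50 after each annotated start. Of the 40 members 36 had a window, some of them more than 1, which gave 40 windows. The core of the C/EBP-ATF response element, TGATGNAA, through which ATF4 and C/EBP partners bind DNA, was searched on both strands. It occurred in 3.97% of all 32851 windows and in 7 members, Asns, Atf3, Chac1, Herpud1, Nupr1, Trib3 and Vldlr. The stretch from the Chac1 promoter, on the plus strand at chr2:119351019-119351086 upstream of the first exon, is shown because Chac1 was high in the SCDM libraries alone. Its capitals mark the element, read here on the opposite strand.
Chac1: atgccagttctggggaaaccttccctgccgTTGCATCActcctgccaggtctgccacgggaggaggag
Only Asns of the 8 amino acid genes with a window held the core there, which describes these letters in these windows and says nothing on where ATF4 was bound.

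Of the sensors, Eif2ak3 (PERK) varied least, from 18.9 to 23.3 over all 12 libraries. Ern1 (IRE1) averaged 9.94 ± 0.620 in spheres, 10.7 ± 0.969 in SCDM, 11.7 ± 0.374 in FIBCL and 14.6 ± 2.16 in SCDM/FGF, and Atf6 11.1 ± 1.05, 14.3 ± 0.606, 7.97 ± 0.403 and 13.4 ± 0.313 in the same order. None of the 3 was called in any comparison with rescaling. Between FIBCL and SCDM, Ern1 stood at 0.12 ± 0.1, a sign that turned to -0.25 without rescaling, and Atf6 at -0.77 ± 0.073, or -1.13 without rescaling.

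Xbp1 encodes the transcription factor that IRE1 activates by splicing, and it was the only member that rose in SCDM/FGF against SCDM. Its level was 170.5, 170.1 and 169 in spheres, 121, 122 and 124 in SCDM, 62.7, 69.5 and 63.2 in FIBCL and 527, 486 and 475 in SCDM/FGF. The groups did not overlap, with SCDM/FGF highest and FIBCL lowest. Xbp1 rose in SCDM/FGF against SCDM (2.01 ± 0.048, limma adjusted p = 1.08e-10) and against spheres (1.54 ± 0.048, limma adjusted p = 7.26e-10), and it fell in FIBCL against SCDM/FGF (-2.91 ± 0.048, limma adjusted p = 1.01e-12). Xbp1 and Trib3 were thus highest in different cultures. The summed level of 6 endothelial markers had the groups in the order of Xbp1, with 264 to 303 in SCDM/FGF, 109 to 110.4 in spheres, 42.8 to 51.2 in SCDM and 13.05 to 13.7 in FIBCL. In SCDM/FGF, Emcn and Cdh5 made up 99.2% of that sum, while Pecam1 averaged 0.873 and Cldn5 0.131, and Cldn5 was listed at 0 in all libraries of SCDM and FIBCL. Other markers of the list had other orders. Tek fell in SCDM/FGF against SCDM (-1.83), and Kdr rose in FIBCL against SCDM (1.98). The markers thus did not move as a set, and the part of cell composition in the level of Xbp1 was not tested.

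The 11 ER chaperones and folding factors and 4 ERAD genes had small median changes where the amino acid arm changed most. None of the 15 was called between SCDM and spheres (median log2 fold change 0.22), where 6.94% of all genes rose and 5.46% fell. Between SCDM/FGF and SCDM none was called either (median 0.15), where 5.73% rose and 4.04% fell. By the adjusted p alone, 9 were higher and 1 lower in the former and 8 higher and 2 lower in the latter. That limit was passed by 50.3% and 43.1% of all genes. In the former 24.5% of all genes were higher and 25.8% lower, and in the latter 21.8% and 21.3%. Of the 15 values, 13 and 12 were above 0, so the small changes leaned upward. In FIBCL, 3 of them fell against SCDM, 5 against SCDM/FGF and 3 against spheres, and none rose. These are 20%, 33.3% and 20% of the 15, where 16.1%, 15.8% and 15.5% of all genes fell. Without rescaling 7, 8 and 8 of them fell, where 23.3%, 20.6% and 26.9% of all genes did. The medians were -0.53, -0.70 and -0.53, beside -0.07, -0.05 and -0.06 over all genes.

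Pdia6, a protein disulfide isomerase, had the largest fall of the chaperones. It stood at 419.7, 446 and 421 in spheres, 512, 488 and 500.1 in SCDM, 136, 142 and 137 in FIBCL and 492, 536 and 538 in SCDM/FGF, lower in the FIBCL libraries than in the other 9. The log2 fold change was -1.84 ± 0.043 against SCDM (limma adjusted p = 1.49e-11), -1.90 ± 0.043 against SCDM/FGF and -1.62 ± 0.043 against spheres. Hsp90b1 (GRP94), the HSP90 of the ER, stood at 569, 608 and 597 in spheres, 689, 683 and 720.0 in SCDM, 314, 315 and 324 in FIBCL and 806, 889.7 and 873 in SCDM/FGF. It was lowest in FIBCL and highest in SCDM/FGF, and it fell in FIBCL against SCDM (-1.13 ± 0.045) and SCDM/FGF (-1.43 ± 0.045, limma adjusted p = 1.42e-10).

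Hspa5 (BiP), the main HSP70 of the ER and the usual mark of its stress, ranged from 604 to 774 over the 9 libraries outside FIBCL and from 415 to 443 in FIBCL. Its difference between FIBCL and SCDM, -0.82 ± 0.046 (limma adjusted p = 1.88e-08), was under the limit of 1 and passed it without rescaling (-1.22). Between SCDM and spheres it was 0.29 ± 0.046, next to 3.69 for Trib3 and 3.46 for Chac1 in the same comparison. Dnajb9, a co-chaperone of BiP, averaged 42.5 ± 0.747 in spheres, 30.9 ± 2.62 in SCDM, 16.6 ± 1.25 in FIBCL and 43.3 ± 1.34 in SCDM/FGF and fell in FIBCL against SCDM/FGF (-1.33 ± 0.067) and spheres (-1.31 ± 0.067). Hyou1, which exchanges the nucleotide of BiP, was highest in SCDM/FGF, with 67.6 ± 0.847 in spheres, 84.7 ± 3.33 in SCDM, 67.5 ± 1.23 in FIBCL and 141 ± 4.98 in SCDM/FGF. It was the chaperone that rose in SCDM/FGF against spheres (1.05 ± 0.04, limma adjusted p = 3.41e-09), and it fell in FIBCL against SCDM/FGF. Spheres and FIBCL overlapped for Hyou1.

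The other folding factors were not called in any comparison with rescaling. Sdf2l1, a component of ER chaperone complexes, differed from them in FIBCL, averaging 33.6 ± 4.05 in spheres, 39.6 ± 4.20 in SCDM, 59.1 ± 1.55 in FIBCL and 63.5 ± 4.19 in SCDM/FGF. It was the folding factor with a positive log2 fold change between FIBCL and SCDM, 0.57 ± 0.091, and its difference between SCDM/FGF and spheres, 0.91 ± 0.091, reached 1.00 without replicate 2 of spheres. Pdia4, a further disulfide isomerase, had -0.79 ± 0.034 between FIBCL and SCDM, and Creld2, a secreted factor induced by ER stress, had -0.63 ± 0.051. Without rescaling both passed as lower in FIBCL against the 3 other groups, with values from -1.01 to -1.24. The values of the lectin chaperones Calr and Canx were -0.33 ± 0.042 and -0.31 ± 0.033, and that of Manf, a small ER protein induced by stress, was -0.40 ± 0.073. The most abundant of these was Calr, with 1007 ± 12.3 in SCDM and 802 ± 11.5 in FIBCL.

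Among the ERAD genes Herpud1, a membrane protein of the HRD1 complex, stood apart. Its level was 59.6, 62.8 and 54.4 in spheres, 92.7, 90.3 and 88.7 in SCDM, 16.8, 16.6 and 16.5 in FIBCL and 48.8, 50.6 and 53.3 in SCDM/FGF, so that SCDM was highest and FIBCL lowest with no overlap. It fell in FIBCL against SCDM (-2.38 ± 0.054, limma adjusted p = 1.16e-11), SCDM/FGF (-1.56 ± 0.054) and spheres (-1.77 ± 0.054). The ubiquitin ligase Syvn1 (HRD1), its partner Sel1l and the mannosidase-like Edem1 were not called in any comparison with rescaling, with -0.53 ± 0.066, -0.49 ± 0.068 and 0.19 ± 0.062 between FIBCL and SCDM. Without rescaling the sign of Edem1 turned (-0.20), and Syvn1 passed as lower in FIBCL against SCDM/FGF, just past the limit, and against spheres (-1.05).

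The ER stress response element (ERSE) is CCAAT, 9 letters of any kind and CCACG, through which NF-Y and ATF6 or XBP1 bind together. Searched on both strands, it occurred in 39 of the 32851 windows, 0.119% of them, and in 7 members, namely 6 of the 9 chaperones and folding factors with a window (Calr, Canx, Creld2, Hsp90b1, Hspa5 and Pdia6) and the ERAD gene Syvn1. None of the 8 amino acid genes with a window held it. The matches of Hspa5, Hsp90b1, Pdia6 and Creld2 are shown in the direction of the element, 2 for Hsp90b1, because the differences of these genes between FIBCL and SCDM run from -0.63 for Creld2 to -1.84 for Pdia6. Calr, Canx and Syvn1, which also held the element, had smaller differences and are not shown. Dnajb9 and Pdia4 had a window without the element, with differences of -0.86 and -0.79 beside -0.82 for Hspa5. Sdf2l1, whose window also lacked it, had a positive difference. Capitals mark the fixed letters of the element.
Hspa5: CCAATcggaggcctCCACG
Hsp90b1, distal: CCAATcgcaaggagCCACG
Hsp90b1, proximal: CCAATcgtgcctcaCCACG
Pdia6: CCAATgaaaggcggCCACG
Creld2: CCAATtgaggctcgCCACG
They began 65 bases before the RefSeq start of Hspa5, 212 and 107 before that of Hsp90b1, 98 before that of Pdia6 and 126 before that of Creld2. In the genome they lie at chr2:34772025-34772043, chr10:86705638-86705656, chr10:86705533-86705551, chr12:17266491-17266509 and chr15:88819520-88819538. The GENCODE annotation starts Hspa5 at chr2:34771970, so by that annotation its match lies inside the gene. The promoter of Hsp90b1 with both elements in capitals (the proximal one reads on the opposite strand), minus strand of chr10:86705510-86705686, and that of Pdia6, plus strand of chr12:17266461-17266539, read as follows.
Hsp90b1: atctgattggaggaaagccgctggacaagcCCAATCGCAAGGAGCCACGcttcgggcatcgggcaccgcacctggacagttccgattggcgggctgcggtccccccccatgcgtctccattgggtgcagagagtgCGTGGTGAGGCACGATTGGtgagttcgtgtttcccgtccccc
Pdia6: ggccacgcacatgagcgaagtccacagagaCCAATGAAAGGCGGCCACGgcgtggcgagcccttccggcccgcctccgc

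Herpud1 was the member whose window held motifs of both responses. It had the C/EBP-ATF core and, nearer the start, the shorter ERSE-II, ATTGG, any letter and CCACG, which occurred in 0.0365% of all windows. The stretch on the plus strand at chr8:94386287-94386417, upstream of the first exon, has the core and ERSE-II in capitals in this order.
Herpud1: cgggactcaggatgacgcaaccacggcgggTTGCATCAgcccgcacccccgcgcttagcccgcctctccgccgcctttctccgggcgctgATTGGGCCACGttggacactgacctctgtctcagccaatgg
The UPRE core TGACGTGG, in 0.676% of all windows, occurred in none of the members' windows, and the cyclic AMP response element TGACGTCA, in 1.79%, occurred in that of Ppp1r15a.

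The arms were then compared within each library, as the median over the genes of an arm of log2 levels centred on each gene's mean. The amino acid arm minus the ER chaperone and ERAD arm was 0.82, 0.98 and 0.88 in SCDM, 0.49, 0.53 and 0.25 in FIBCL, -0.57, -0.49 and -0.62 in SCDM/FGF and -0.65, -0.70 and -0.74 in spheres. SCDM was highest, FIBCL came next without overlap, and spheres and SCDM/FGF were low. The pooled SD of this difference between libraries of a group was 0.095. The median fold change of the amino acid arm exceeded that of the ER arm by 1.65 between SCDM and spheres and by 1.21 between FIBCL and spheres, and by 0.096, about the spread between libraries, between SCDM/FGF and spheres, a value that ran from 0.041 to 0.18 when single libraries were left out. Between FIBCL and SCDM/FGF it exceeded it by 0.93. The same difference between the arms was -1.61 between SCDM/FGF and SCDM and -0.24 between FIBCL and SCDM, where both arms had negative medians.

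**Figure D4:**
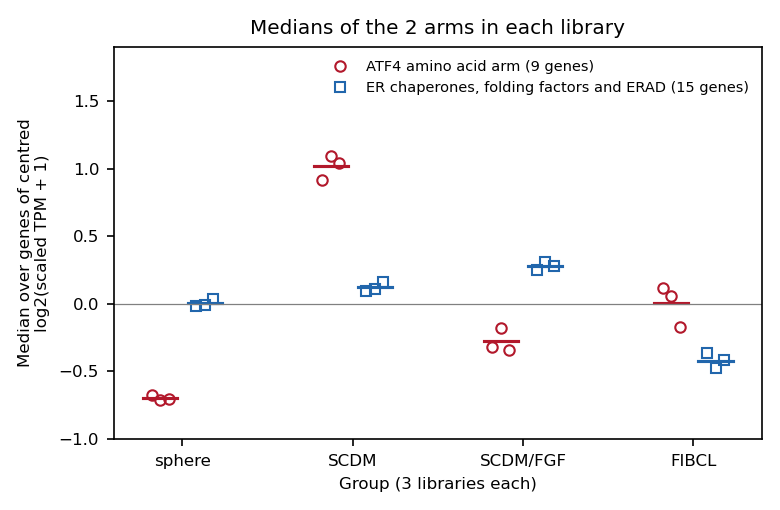
Median over genes of log2(scaled TPM + 1), centred on each gene's mean over the 12 libraries, for the 9 genes of the amino acid arm (red circles) and the 15 ER chaperone, folding and ERAD genes (blue squares) in each library; bars are group means. The amino acid arm runs from -0.71 in a sphere library to 1.09 in an SCDM library, and the ER arm from -0.48 in a FIBCL library to 0.31 in an SCDM/FGF library.

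The markers of other cells moved with the groups as well. All 10 macrophage markers rose in both SCDM and SCDM/FGF against spheres. Between SCDM/FGF and SCDM, 1 of them rose and 3 fell (median -0.12), and C1qa and C1qb made up 53.6% of their sum in SCDM/FGF and 44.6% in SCDM. C1qa fell to 0.384 in FIBCL from 415 in SCDM. The mesenchymal sum was highest in SCDM and lowest in FIBCL, where 9 of 10 mesenchymal markers had fallen against SCDM and Twist1 had risen (1.18). Without rescaling Twist1 was not called. Between SCDM/FGF and SCDM 3 of them rose and 3 fell. The sum of 5 melanocyte markers stayed between 0.561 and 2.15 in all libraries. The part of cell composition in the levels of the amino acid arm and in the lower ER genes of FIBCL was not tested.

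Further genes of these pathways were summarised by list. Of 20 cytosolic aminoacyl-tRNA synthetases, many of them ATF4 targets, 3 rose and none fell in SCDM against spheres (median 0.66), which is 15% beside 6.94% of all genes. Without rescaling 1 rose, beside 6.31% of all genes. Of these 20, 2 fell in FIBCL against SCDM, Eprs (-1.26 ± 0.049) and Vars (-1.02 ± 0.058), a share of 10% below the 16.1% of all genes, or 7 without rescaling beside 23.3%. Of 22 other genes of amino acid synthesis and transport, 9 rose and 1 fell in SCDM against spheres (median 0.81), 40.9% and 4.55% of them beside 6.94% and 5.46% of all genes. In SCDM/FGF against SCDM 2 rose and 7 fell (median -0.72), 9.09% and 31.8% beside 5.73% and 4.04%, and 3 rose and 9 fell in FIBCL against SCDM (median -0.59). The strongest falls in FIBCL were those of the proline enzyme Pycr1, from 44.00 to 2.01 (-3.93 ± 0.23), and the glycine transporter Slc6a9, from 25.1 to 1.76 (-3.25 ± 0.12). Rises were led by Slc7a11, the cystine carrier (1.78 ± 0.16), and Cbs, an enzyme of cysteine synthesis (2.37 ± 0.45). Cbs stood at 20.6, 4.98 and 5.31 in FIBCL, so that replicate 1 carried much of its value, which was 1.77 without it. In FIBCL the share of the 22 that rose, 13.6%, was near the 13.2% of all genes, and the share that fell was 40.9% beside 16.1%. Without rescaling 3 of the 22 rose and 11 fell there (median -0.96), beside 9.3% and 23.3% of all genes.

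None of 12 further genes of eIF2 control, namely eIF2 kinases, eIF2 and eIF2B subunits and the phosphatase subunit Ppp1r15b, was called between FIBCL and SCDM (median -0.07), or 2 as lower without rescaling (median -0.45). Of 21 other ER folding enzymes and chaperones, none rose and 4 fell (median -0.57), with Dnajc3, a co-chaperone of BiP (-1.55 ± 0.056), and Pdia5, a disulfide isomerase (-1.49 ± 0.052), falling most. Of 28 genes of ER translocation and signal peptide processing, 4 fell (median -0.27), with Ssr4 (-1.24 ± 0.049) and Ssr1 (-1.23 ± 0.046), subunits of the translocon-associated complex, lowest. Of 20 other ERAD genes, Erlec1 fell (-1.11 ± 0.053) and the median was -0.14. The shares that fell, 19% of the 21 and 14.3% of the 28, were near the 16.1% of all genes, and that of the 20, 5%, was below it. Without rescaling 10, 9 and 2 genes of these lists fell, beside 23.3% of all genes, with medians of -0.96, -0.67 and -0.54. Of 19 cytosolic and mitochondrial heat shock genes 4 rose, 21.1% beside 13.2% of all genes, and none fell, with 10 values above 0 and 9 below (median 0.23). Without rescaling 4 rose and 1 fell (median -0.17). The rises were led by the small heat shock gene Hspb8, from 25.7 ± 1.77 in SCDM to 207 ± 1.57 in FIBCL (2.97 ± 0.066, limma adjusted p = 9.9e-12), and by Hspa1b (2.55 ± 0.12), which is nearly identical to Hspa1a so that the split of reads between them is uncertain.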

How the data were processed

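Per the labels and the study's methods, poly(A) RNA was made into TruSeq libraries, and the authors used SeqPrep and Sickle for trimming, TopHat for alignment and RSEM for gene levels. Versions and the genome build are not given in the sources used here. The header of the deposited table names no unit. The deposited values, made by the authors with RSEM and given to 2 decimals, were taken as TPM, since each library sums to somewhat less than the fixed total that TPM has, although the methods describe fragments per kilobase and mapped reads. The FIBCL columns are headed FIBC, which the study also uses for the mixture without LIF. They were taken as the FIBCL samples because the labels list no other small-molecule culture. TPM keeps no read depth, so depth is unknown and no counting interval is given. The unit replaced the EdgeR test of the methods by limma.

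Each library was divided by a trimmed mean of its log2 ratios to the average library over 8434 genes of at least 5 TPM in all libraries, with 30% of genes left out at each end. log2(scaled TPM + 1) of 16016 genes was fitted in limma 3.58.1 (R 4.3.3, variance trend) with 4 groups and 6 contrasts, with no covariate. p-values were adjusted by Benjamini-Hochberg within each contrast. The fit was also run on simulated data with independent normal noise and a small set of genes changed in FIBCL alone. That run lacks the broad shifts between these groups and does not show how the fit handles them. The 40 members were named by fixed symbols, and of other lists at most the 2 highest and 2 lowest called genes in FIBCL against SCDM. Members and lists were chosen with earlier results of these data known. Motifs were searched with Python 3.11.15. Replicate numbers did not pair the libraries. Alternatives were other scalings, pseudocounts, filters, limits, fits, a replicate block and leaving out each replicate.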

Additional observations from a re-analysis of the deposited data

Results flagged for a closer look

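For 4 members, cells in SCDM and cells in SCDM/FGF departed from spheres in opposite directions, which held for 10% of the members and 5.64% of all genes tested. They were chosen for this pattern in these libraries, so the values below describe it and are no separate support. Xbp1 differed by 2.01 on the log2 scale, from -0.47 in SCDM to 1.54 in SCDM/FGF (limma adjusted p of the difference = 1.08e-10). Ddit3 differed by -2.12, from 1.36 to -0.76 (limma adjusted p = 9.53e-10). Ppp1r15a differed by -0.99, from 0.61 to -0.38 (limma adjusted p = 1.04e-05). Herpud1 differed by -0.82, from 0.61 to -0.21 (limma adjusted p = 2.75e-07). Groups of 3 libraries are too small for the check for single outlying libraries.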

How the results depend on the processing

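Over 21 alternatives, 125 of 126 values of the difference between arms moved by less than the spread between libraries, and 829 of 840 fold changes of members between FIBCL and SCDM kept direction and side of the threshold. Many of these values could not move. Leaving out a library of a group not compared leaves a fold change as it is, since the scaling was kept. The same holds for the filters, the replicate block and the fits without variance trend or with only the compared groups. These totals therefore overstate how far the results were tried. Over 23 alternatives, which include the limits on the fold change, 251 of 276 counts of members stayed within 1.5 times the reported count. Without FIBCL replicate 3 the arms differed by 1.04 between FIBCL and SCDM/FGF, and the range over all libraries left out was 0.84 to 1.04. Leaving out single libraries gave 5 to 6 members higher and 7 to 8 lower in FIBCL against SCDM/FGF, 3 to 5 higher in SCDM/FGF against spheres and 11 to 12 lower in SCDM/FGF against SCDM, and the same counts elsewhere.

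The limit on the fold change and the scaling both moved the counts. With deposited TPM, 20 members were lower in FIBCL against SCDM, 1 higher and 12 lower against SCDM/FGF and 2 higher and 13 lower against spheres, and in SCDM/FGF against spheres 1 was higher and 2 lower. The shares of all genes were then 23.3%, 8.8% and 20.6%, 7.87% and 26.9%, and 6.12% and 6.93%. In FIBCL against SCDM the uncalled values of Ern1 (-0.25), Cebpb (-0.049), Ppp1r15a (-0.27) and Edem1 (-0.20) turned negative, and Atf6, Xbp1, Shmt2, Hspa5, Pdia4, Dnajb9 and Creld2 passed as lower, from -1.02 to -1.29. By the adjusted p alone, 4 members were higher and 32 lower in FIBCL against SCDM, 11 and 21 against SCDM/FGF, 16 and 19 against spheres, 28 and 4 in SCDM against spheres, 24 and 5 in SCDM/FGF against spheres, and 11 and 22 in SCDM/FGF against SCDM. In the same order this held for 32.7% and 39%, 32.5% and 38.2%, 32.9% and 38.7%, 24.5% and 25.8%, 25% and 25.4%, and 21.8% and 21.3% of all genes. With a limit of 1.5 on the log2 scale, 1 was higher and 4 lower in FIBCL against SCDM/FGF, 2 and 3 against spheres, 1 higher in SCDM/FGF against spheres and 7 lower in SCDM/FGF against SCDM, beside 6.97% and 9.8%, 7.13% and 8.79%, 4.12% and 1.97% of all genes.

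The replicate block changed no call. Of 18 pairs of same-numbered groups none correlated above 0.1 (r from -0.12 to 0.098), so numbers were not taken as pairs. Depth is unknown, and the lowest member levels, those of Chac1 in spheres and SCDM/FGF, bear the least precise fold changes.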
